A study of Homo sapiens with 16 samples.

Results

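The vascular endothelial growth factor (VEGF) ligands VEGFA, VEGFB, VEGFC and PGF, their receptors FLT1 and KDR, the coreceptors NRP1 and NRP2 and the secreted angiogenesis-related protein ANGPTL4 were followed in 16HBE cells, an SV40-immortalised human bronchial epithelial line. Every non-control probe that the array files assign to 1 of these 9 genes was taken, which gave 16 of 58201 probes and 9 of 42665 gene names. Probes were tested when well above background on at least 4 of 16 arrays, which left 10 of the 16 probes and 7 of the 9 genes, among 34599 tested probes in all. 16HBE-WT cells carried unedited MET, the receptor of hepatocyte growth factor (HGF), and 16HBE-ex14 cells had been edited with CRISPR/Cas9 so that MET exon 14 is skipped. The 16HBE-ex14 cells on the arrays were 1 clone, clone F, so the edit and the clone cannot be told apart. All 4 groups had been without serum for 2 h. The 16HBE-WT+HGF and 16HBE-ex14+HGF cells then received 20 ng/mL HGF for 24 h, and the 16HBE-WT and 16HBE-ex14 cells received none. Each group had 4 one-colour arrays. The 4 treated 16HBE-WT samples carry a different genotype abbreviation in their titles, and they were placed by their description.

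VEGF ligands are secreted dimers that act mainly on endothelial cells. VEGFA binds the tyrosine kinases FLT1 and KDR, VEGFB and PGF bind FLT1, and VEGFC acts through FLT4 and KDR on lymphatic and blood vessels. Neuropilins have no kinase domain, bind VEGF forms and class 3 semaphorins, and pair with KDR or plexins, and NRP1 is also made by epithelial cells. Epithelial cells of the airway are a known source of VEGFA, whose transcription rises when oxygen is low, while ANGPTL4, an inhibitor of lipoprotein lipase, is a target of hypoxia-inducible factors and of PPAR nuclear receptors.

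The levels below are log2 spot signals relative to the 75th percentile of the same array, so a level of 1 is a signal 2-fold above that percentile. Each probe has its own brightness, and levels were compared within a probe only. The last 30 of the 60 probe bases are shown for the probes that carry the results, because the probe decides which part of a transcript was read, and the polyadenylation hexamer AATAAA is in capitals where a probe holds it. The hexamer was in 2 of the 16 probes, those of ANGPTL4 and PGF. The probes of ANGPTL4 (chr19:8439197-8439256, plus strand), PGF (chr14:75408540-75408599, minus strand) and VEGFB (chr11:64006111-64006170, plus strand) each lie in 1 stretch of hg19. Probe 1 of NRP1 (chr10:33496622-33502350, minus strand) and probe 1 of VEGFA (chr6:43746223-43746634, plus strand) span more of the genome than 60 bases and so cross an intron. Probe 2 of NRP1 (chr10:33466936-33466995) and probe 3 (chr10:33538362-33538421) were designed on other NRP1 transcripts than probe 1. The exon or untranslated region of each probe was not determined here.
ANGPTL4: ttcttggAATAAAagcaacctcagaacact
PGF probe 1: gattctcttgAATAAAgtattctagtgtgg
VEGFB: aagcatcttacaactggctcttcctcccct
VEGFA probe 1: gcacaacaaatgtgaatgcagaccaaagaa
NRP1 probe 1: ggcgaagtcttttgagggcaacaacaacta
NRP1 probe 2: taagaaacactcgtttgttgtttttaaagg
NRP1 probe 3: attgaaactgagtttcttttcctataaaat

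Across the 16 arrays, the 75th percentile lay between 139.5 and 262.8 intensity units, and between 49.0% and 60.3% of probes were well above background. The median over arrays of the lowest level called well above background was -4.40, which bounds what could be measured. The arrays lay on 2 slides with 2 rows each, and every row held 1 array of each group, so differences are also given within each slide. MET, read by a probe whose position relative to exon 14 was not determined, had mean levels of 4.97 without and 5.00 with HGF in 16HBE-WT and of 5.10 and 5.16 in 16HBE-ex14 and was not called in any comparison. Both HGF probes were above background on 0 of 16 arrays. All p-values are from limma over all 34599 tested probes, adjusted by Benjamini-Hochberg within a comparison, and a call needed an adjusted p under 0.05 together with more than a 1.5-fold change. Nothing in the files says which array came from which culture, so the p-values measure the spread between these arrays.

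The first comparison asked what HGF changed in cells with METex14. ANGPTL4, PGF and NRP1 were higher in 16HBE-ex14+HGF than in 16HBE-ex14 cells. The 4 called probes, of these 3 genes, were all higher, out of 10 tested, by 3.42-fold for ANGPTL4, 1.96-fold for PGF and 1.90-fold and 1.94-fold for 2 probes of NRP1. Of all tested probes, 2.00% were called, 1.05% as higher and 0.957% as lower. The median log2 difference was 0.57 over the member probes and 0.05 over all probes, but NRP1 enters it by 3 probes and VEGFA by 2. The members were chosen with earlier results of these data known, so these medians do not test the family as a whole. By the brightest probe of each gene, ANGPTL4 was at 1.78, PGF at 0.97 and NRP1 at 0.93. VEGFA was at 0.17, VEGFB at 0.01, VEGFC at -0.16 and NRP2 at -0.21. Groups of 4 arrays did not overlap for 6 of the 10 probes, all higher with HGF, against 8.84% of all probes in either direction and 4.39% higher. They were ANGPTL4, PGF, the 3 probes of NRP1 and 1 of the 2 probes of VEGFA. In this bulk RNA, fewer cells of a type and less RNA per cell cannot be told apart.

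The same question in cells with unedited MET gave no call. In 16HBE-WT cells 0 of the 10 member probes and 0 of all probes were called (0%), the smallest adjusted p over all probes was 0.549, and 1694 probes had an unadjusted p below 0.05. Even so, both groups of 4 arrays stood apart for 3 member probes, those of ANGPTL4 and probes 1 and 2 of NRP1, against 2.62% of all probes in either direction and 1.60% higher. The median difference was 0.19 over the member probes, with 3 probes of NRP1 and 2 of VEGFA among them, and 0.04 over all. The choice of members limits this median in the same way.

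**Figure D1:**
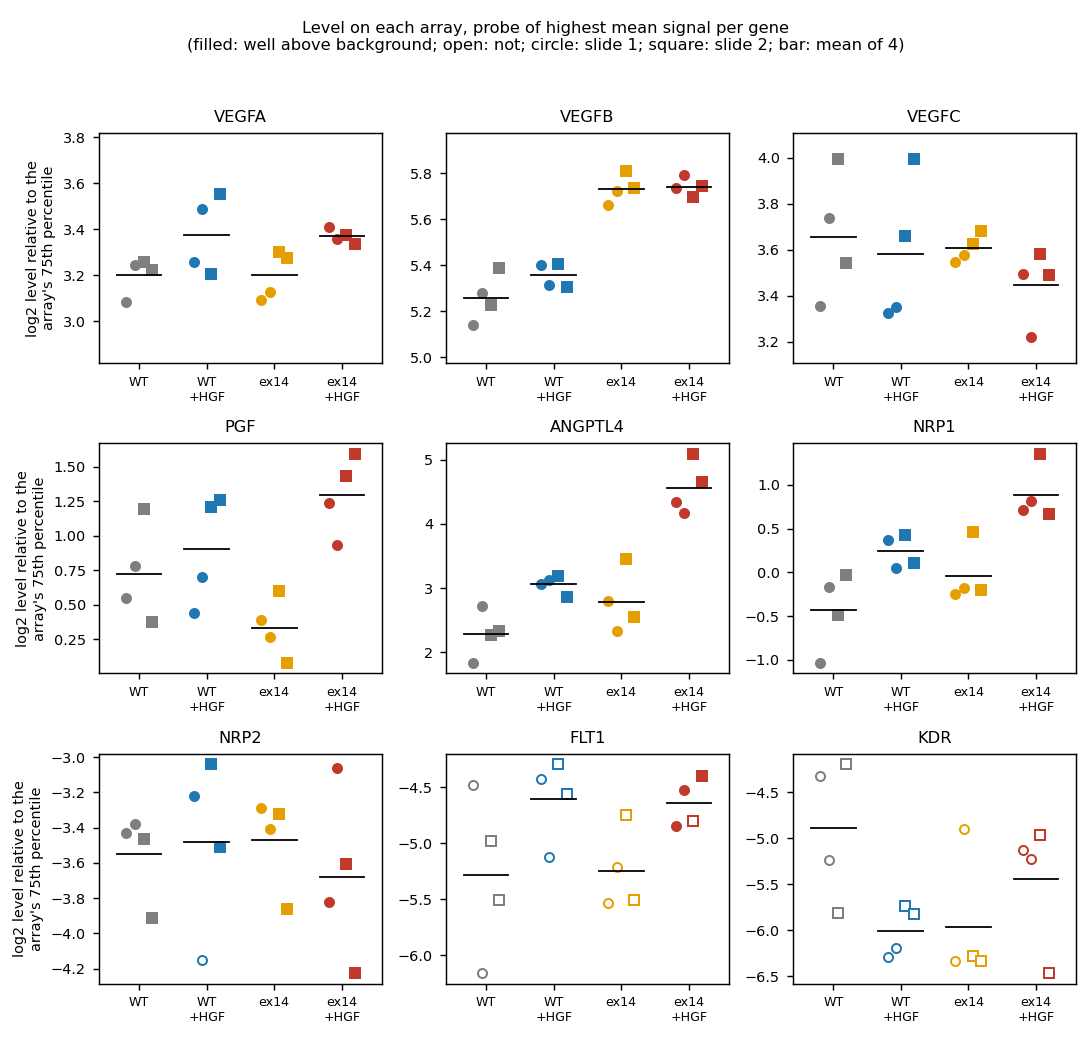
Log2 level relative to the array's 75th percentile (vertical axes) on each of the 16 arrays, in 1 panel per gene for its probe of highest mean signal. Columns are the 4 groups, filled symbols are arrays where the probe was well above background, open symbols arrays where it was not, circles slide 1 and squares slide 2, and bars the mean of 4 arrays. ANGPTL4 was highest on the 4 16HBE-ex14+HGF arrays (4.16 to 5.09), VEGFB formed a lower pair and a higher pair of groups by line, and no KDR symbol is filled.

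ANGPTL4 showed the widest range of group means among the members, 2.27 log2 units from lowest to highest. Its levels were 1.83, 2.72, 2.27 and 2.33 on the 16HBE-WT arrays and 3.06, 3.13, 3.18 and 2.87 on the 16HBE-WT+HGF arrays. On the 16HBE-ex14 arrays they were 2.80, 2.34, 3.45 and 2.55, and on the 16HBE-ex14+HGF arrays 4.35, 4.16, 5.09 and 4.65. The HGF-treated 16HBE-ex14 arrays lay above the other 12 arrays, and the untreated groups of the 2 lines overlapped. With HGF, ANGPTL4 rose by 1.78 (SE 0.25, 95% interval 1.25 to 2.30, adjusted p = 0.00181) in 16HBE-ex14 cells, in all 4 array rows. The difference was 1.68 on slide 1 and 1.87 on slide 2. In 16HBE-WT cells the value was 0.77 higher with HGF (SE 0.25, adjusted p = 0.871), in all 4 rows and without overlap, which did not pass the test. Between the HGF-treated groups, 16HBE-ex14+HGF was 1.502 above 16HBE-WT+HGF (SE 0.25, adjusted p = 0.000608), with 1.16 on slide 1 and 1.84 on slide 2. Without HGF the difference between the lines was 0.50 (SE 0.25, adjusted p = 0.196).

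PGF, the placental growth factor, has a probe that was bright on all 16 arrays and a dim one. Probe 1 read 0.39, 0.26, 0.60 and 0.08 on the 16HBE-ex14 arrays and 1.24, 0.93, 1.43 and 1.60 on the 16HBE-ex14+HGF arrays. These groups did not overlap, and PGF rose by 0.97 (SE 0.22, 95% interval 0.50 to 1.43, adjusted p = 0.0264), with 0.76 on slide 1 and 1.18 on slide 2. The 16HBE-WT arrays read 0.55, 0.78, 1.20 and 0.37, and the 16HBE-WT+HGF arrays read 0.44, 0.70, 1.21 and 1.26. These groups overlapped fully, with a difference of 0.18 (SE 0.22, adjusted p = 1). The 2 lines did not differ past the threshold either way: 16HBE-ex14 was -0.39 from 16HBE-WT without HGF (adjusted p = 0.251) and 0.40 above it with HGF (adjusted p = 0.231). The call with HGF was lost without 16HBE-ex14 replicate 1, 2 or 4 or 16HBE-ex14+HGF replicate 3 or 4, where the adjusted p lay between 0.0526 and 0.0964. Probe 2, in another part of the gene, was above background on 3 of 16 arrays and was not tested.

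VEGFA, the ligand best known in airway epithelium, moved little. Probe 1 read 3.08, 3.24, 3.26 and 3.23 on the untreated 16HBE-WT arrays and 3.26, 3.49, 3.20 and 3.55 on the treated ones. On the 16HBE-ex14 arrays it read 3.09, 3.13, 3.30 and 3.28 untreated and 3.41, 3.36, 3.38 and 3.34 treated. The treated arrays lay above the untreated ones in 16HBE-ex14 and overlapped them in 16HBE-WT. Its difference with HGF was 0.17 in each line (SE 0.09 for both, adjusted p = 0.446 in 16HBE-ex14 and 1 in 16HBE-WT). The 95% interval ran from -0.03 to 0.37 in each line, so a change by the fold limit of 1.5 lay outside it. Probe 2 gave 0.21 in each line (SE 0.12, adjusted p = 0.449 in 16HBE-ex14). Between the lines the difference of probe 1 was -0.003 without HGF and -0.01 with it.

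VEGFB, a ligand of FLT1, differed by line. It read 5.14, 5.28, 5.23 and 5.39 in 16HBE-WT and 5.40, 5.31, 5.40 and 5.31 in 16HBE-WT+HGF. The edited clone gave 5.66, 5.73, 5.81 and 5.73 untreated and 5.73, 5.79, 5.70 and 5.74 with HGF. All 8 16HBE-ex14 arrays lay above all 8 16HBE-WT arrays. The difference was 0.47 without HGF (SE 0.08, adjusted p = 0.000562) and 0.39 with HGF (SE 0.08, adjusted p = 0.00213), with 0.48 and 0.46 on slides 1 and 2 without HGF and 0.41 and 0.37 with it. These are fold changes of 1.39 and 1.31, under the limit of 1.5, so VEGFB was not called. With scaling to the array median the difference without HGF was 0.61 and with the E1A spike-in probes 0.60, past that limit. Array median scaling moved the median of all probes in this comparison as well, from -0.02 to 0.12. With quantile normalization VEGFB was at 0.38 and with normexp background correction at 0.54, both under the limit. With HGF it differed by 0.01 in 16HBE-ex14 (SE 0.08, adjusted p = 0.976) and by 0.10 in 16HBE-WT (adjusted p = 1).

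VEGFC, which drives lymphatic growth, had overlapping groups in all 4 comparisons of groups. On the 16HBE-WT arrays it read 3.36, 3.74, 3.99 and 3.54 untreated and 3.33, 3.35, 3.66 and 3.99 with HGF. On the 16HBE-ex14 arrays it read 3.55, 3.58, 3.62 and 3.68 untreated and 3.49, 3.22, 3.58 and 3.49 with HGF. With HGF the difference was -0.16 in 16HBE-ex14 (SE 0.16, adjusted p = 0.733) and -0.07 in 16HBE-WT (adjusted p = 1).

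**Figure D2:**
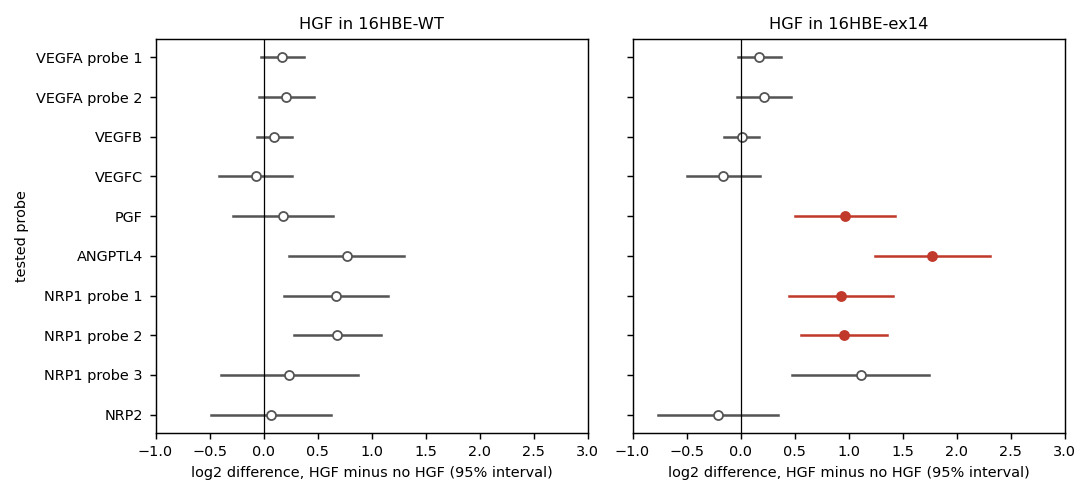
Log2 difference of the HGF-treated minus the untreated group (horizontal axes) with its 95% interval for the 10 tested probes, in 16HBE-WT on the left and 16HBE-ex14 on the right. Filled red symbols are called probes. The 4 red symbols are all in 16HBE-ex14, with ANGPTL4 at 1.78, and ANGPTL4 and NRP1 probes 1 and 2 lie to the right of 0 in both lines.

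NRP1 is the receptor-side member with the widest range, 1.32 log2 units over the group means of probe 1. That probe read -1.04, -0.16, -0.49 and -0.03 in 16HBE-WT and 0.37, 0.05, 0.43 and 0.11 in 16HBE-WT+HGF. The edited clone gave -0.24, -0.18, 0.46 and -0.20 untreated and 0.71, 0.82, 1.35 and 0.67 with HGF. The treated arrays lay above the untreated ones in each line, and replicate 3 was the highest array in both 16HBE-ex14 groups. With HGF, probe 1 rose by 0.93 in 16HBE-ex14 (SE 0.23, adjusted p = 0.0384), with 0.97 on slide 1 and 0.89 on slide 2. In 16HBE-WT it was 0.67 higher (SE 0.23, adjusted p = 0.879). The call in 16HBE-ex14 was near the threshold: the adjusted p was between 0.0501 and 0.134 without 16HBE-ex14 replicate 1, 2 or 4, without any 1 of the 16HBE-ex14+HGF arrays, without 16HBE-WT replicate 3, or without 16HBE-WT+HGF replicate 1 or 2.

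Probe 2 of NRP1 was called in 3 comparisons. It read -1.94, -1.52, -1.47 and -1.14 in 16HBE-WT and -0.63, -0.97, -0.85 and -0.88 in 16HBE-WT+HGF. On the 16HBE-ex14 arrays it read -0.91, -1.06, -0.18 and -0.77 untreated and, with HGF, 0.10, 0.19, 0.44 and 0.18. No array of 16HBE-ex14+HGF overlapped with another group, and untreated 16HBE-ex14 lay above untreated 16HBE-WT. With HGF it rose by 0.96 in 16HBE-ex14 (SE 0.19, adjusted p = 0.0127, 1.13 on slide 1 and 0.78 on slide 2), and the adjusted p was 0.054 without 16HBE-ex14 replicate 2 and 0.0525 without 16HBE-ex14+HGF replicate 3. In 16HBE-WT it was 0.68 higher with HGF (SE 0.19, adjusted p = 0.864), in 4 of 4 rows. 16HBE-ex14 was above 16HBE-WT by 0.79 without HGF (SE 0.19, adjusted p = 0.00877) and by 1.06 with it (SE 0.19, adjusted p = 0.00102).

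Probe 3 of NRP1 was dim, above background on 13 of 16 arrays, and the 3 that were not were 1 untreated and 2 HGF-treated 16HBE-WT arrays, so the differences from these groups rest partly on signals near background. Its mean was -3.93 ± 0.62 (SD, n = 4) without and -3.70 ± 0.37 with HGF in 16HBE-WT cells. In the edited clone it was -3.02 ± 0.40 without and -1.91 ± 0.35 with HGF. The HGF-treated 16HBE-ex14 arrays lay above all others, and the 2 16HBE-WT groups overlapped. With HGF it was 1.11 higher in 16HBE-ex14 (SE 0.30, adjusted p = 0.0618), which missed the threshold but passed it with slide as a block (0.0443), with a trended prior or adjustment over the 5 comparisons (0.0347 each), and without 16HBE-WT replicate 1 (0.0197) or 16HBE-ex14 replicate 3 (0.0261). It was 0.24 higher in 16HBE-WT (adjusted p = 1). Between the lines it was 1.78 higher in 16HBE-ex14+HGF (SE 0.30, adjusted p = 0.000646, 1.59 on slide 1 and 1.97 on slide 2) and 0.91 higher without HGF (SE 0.30, adjusted p = 0.0455). The latter call was near the threshold. With 1 array left out it held only without 16HBE-WT replicate 2, 16HBE-WT+HGF replicate 1 or 2, or 16HBE-ex14+HGF replicate 3. Without any 1 of the other 12 arrays the adjusted p was between 0.0504 and 0.137. The HGF-treated arrays among these 12 are outside this comparison. Leaving 1 of them out alters only the shared spread and the adjustment, not the difference. With normexp background correction probe 3 differed between the lines by 0.05 without HGF (adjusted p = 0.757) and by 0.34 with it, and neither was called. That correction adds 50 intensity units to every spot, which shrinks and shifts the log2 differences of dim probes. The median over all tested probes also moved, to -0.13 without HGF and -0.14 with it. The loss of these calls therefore cannot be read as a lack of a difference. The 3 probes had the same order of group means except that 16HBE-WT+HGF was above 16HBE-ex14 for probe 1 and below it for probes 2 and 3.

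**Figure D3:**
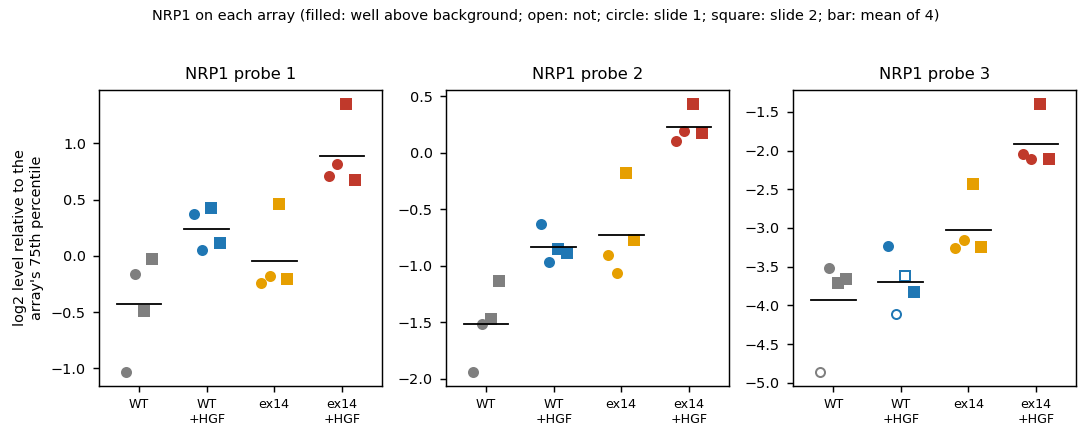
Log2 level relative to the array's 75th percentile (vertical axes) of the 3 NRP1 probes on each array, by group. Filled symbols are well above background, open symbols are not, circles are slide 1, squares slide 2 and bars the mean of 4 arrays. In all 3 panels the 16HBE-ex14+HGF arrays are highest by mean, 0.89, 0.23 and -1.91 for probes 1, 2 and 3.

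NRP2, the neuropilin that pairs with VEGFC receptors, was near the background. Of its 3 probes 1 was tested, above background on 15 of 16 arrays with group means between -3.68 and -3.47, and the other 2 were above background on none. The tested probe was -0.21 from the untreated level with HGF in 16HBE-ex14 (SE 0.26, adjusted p = 0.804), and its groups overlapped in all 4 comparisons of groups. KDR, the main signalling receptor of VEGFA, was above background on 0 of 16 arrays, so its group means, from -6.01 to -4.89, are not levels of KDR RNA. FLT1 probe 2 was above background on 0 of 16 arrays as well. FLT1 probe 1 was above background on 3 arrays, all of them 16HBE-ex14+HGF (-4.84, -4.52 and -4.40), but the fourth array of that group read -4.80 and was not, and the 16HBE-WT+HGF arrays, with none above background, read -5.12 to -4.29. That probe was 1 array short of the filter, and without the filter its log2 difference with HGF was 0.61 in 16HBE-ex14 (adjusted p = 0.549) and 0.68 in 16HBE-WT (adjusted p = 0.985).

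The comparisons of the lines asked how the edited clone differed from 16HBE-WT at the same treatment. Without HGF 2 of the 10 member probes were called, both of NRP1 and both higher in 16HBE-ex14, against 9.40% of all probes called, 4.51% as higher and 4.88% as lower. With HGF 3 were called, probes 2 and 3 of NRP1 and ANGPTL4, all higher in 16HBE-ex14+HGF, against 10.8% of all probes, 5.32% as higher and 5.52% as lower. Groups did not overlap for 3 member probes without HGF and for 5 with HGF, all of them higher in 16HBE-ex14. Without HGF they were VEGFB and NRP1 probes 2 and 3, and with HGF these, NRP1 probe 1 and ANGPTL4. Of all probes, 21.4% without HGF and 23.9% with it did not overlap in either direction, and 11.1% and 12.2% were higher in 16HBE-ex14. Probe 1 of NRP1 was 0.65 higher in 16HBE-ex14+HGF than in 16HBE-WT+HGF without overlap (SE 0.23, adjusted p = 0.0563), in 4 of 4 array rows. It was called with the row as a replicate block (adjusted p = 0.0397), with slide as a block (0.0371), with array median (0.0432) and E1A scaling (0.031), with array weights, with a trended prior, with the compared groups alone and among probes above background on all 16 arrays, and without 16HBE-WT replicate 1 (0.0287) or 4 (0.0494) or 16HBE-ex14 replicate 3 (0.0391). The comparisons share their groups, so they are not independent of each other.

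**Figure D4:**
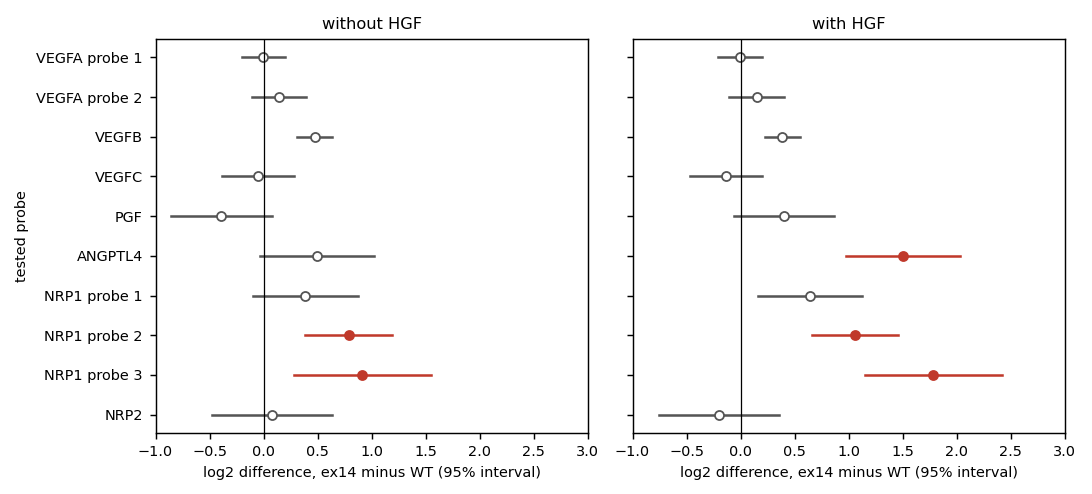
Log2 difference of 16HBE-ex14 minus 16HBE-WT (horizontal axes) with its 95% interval for the 10 tested probes, without HGF on the left and with HGF on the right. Filled red symbols are called probes. VEGFB lies right of 0 in both panels, at 0.47 and 0.39, with narrow intervals and under the fold limit, and ANGPTL4 is called only with HGF.

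Whether HGF acted differently in the 2 lines was tested as the difference of the 2 responses. No member probe was called, nor any of all probes (0%), with a smallest adjusted p of 0.213 and 1600 probes at an unadjusted p below 0.05. ANGPTL4 had the largest value among the member probes, 1.01 (SE 0.35, 95% interval 0.26 to 1.76, unadjusted p = 0.0119, adjusted p = 0.896), with 0.87 on slide 1 and 1.14 on slide 2. The difference of responses was 0.87 for NRP1 probe 3 (95% interval -0.02 to 1.77), 0.79 for PGF (95% interval 0.13 to 1.45, unadjusted p = 0.0218, adjusted p = 0.98), 0.26 for NRP1 probe 1 and 0.27 for NRP1 probe 2. For VEGFA it was -0.003 and 0.005 for probes 1 and 2. The responses of ANGPTL4, PGF and NRP1 were therefore called in 16HBE-ex14 and not in 16HBE-WT, without a call on the difference between them.

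Genes that work with these ligands and receptors were taken from lists and are given by their counts. The list counts here and below are to be read beside the shares of all tested probes. With HGF in 16HBE-ex14, 1.05% were called higher and 0.957% lower. Between the lines 4.51% were called higher in 16HBE-ex14 and 4.88% lower without HGF, and 5.32% higher and 5.52% lower with it. Of 12 neuropilin ligands and plexin partners, 10 were tested. With HGF in 16HBE-ex14, 1 of them was called, SEMA3C, a class 3 semaphorin, which fell by 1.38 (adjusted p = 0.00932, 3 of 4 treated arrays above background). The median of the list was 0.15. The call of SEMA3C was lost with normexp background correction and with the compared groups alone. Without HGF, SEMA3D (1.04, adjusted p = 0.000584) and SEMA3A were higher in 16HBE-ex14, and SEMA3B, another neuropilin ligand, was lower at -1.09 (adjusted p = 4.48e-06). SEMA3A (adjusted p = 0.0347) was above background on 2 of 4 16HBE-ex14 arrays and on no untreated 16HBE-WT array, so no fold is given for it. Its value was -0.099 with normexp, and its call was lost without any 1 of the 4 16HBE-ex14 arrays or 16HBE-WT replicate 1, 2 or 4. Among the HGF-treated groups SEMA3D (0.90, adjusted p = 0.0014) and the plexins PLXNA1 (0.64, adjusted p = 0.000221) and PLXNA4 (0.83, adjusted p = 0.0339), which signal for semaphorins, were higher in 16HBE-ex14+HGF, and SEMA3B was lower at -0.87 (adjusted p = 2.52e-05). PLXNA4 was at -0.029 with normexp and lost its call without 16HBE-ex14+HGF replicate 2, 3 or 4 or 16HBE-WT+HGF replicate 2 or 3, and PLXNA1 lost its call with quantile normalization. The probes of SEMA3A and PLXNA4 are dim, and the normexp offset shrinks and shifts differences of such probes. Of 8 signal partners of VEGF receptors, all were tested and 2 rose with HGF in 16HBE-ex14. They were SH2D2A, an adaptor that binds KDR, at 1.00 (adjusted p = 0.00181) and SPHK1, a sphingosine kinase, at 0.68 (adjusted p = 0.0111), and the list had a median of 0.05. SPHK1 was not called with array median (0.52) or E1A scaling (0.57), which leaves 1 of 8, nor with the compared groups alone. PTPRB, a phosphatase that acts on endothelial receptors, was lower in 16HBE-ex14, at -0.82 without HGF (adjusted p = 0.00387) and -0.83 with it (adjusted p = 0.00336), though not called with normexp. SPHK1 was 0.84 higher in 16HBE-ex14+HGF than in 16HBE-WT+HGF (adjusted p = 0.000357).

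Among the 3 tested of 5 genes that process VEGFC, CCBE1, which helps to activate secreted VEGFC, was higher in 16HBE-ex14 by 1.43 without HGF (adjusted p = 0.000119) and by 1.42 with it (adjusted p = 0.000108), and none was called with HGF in 16HBE-ex14. VEGFD was above background on no array, and the VEGFC receptor FLT4, above background on 13 of 16 arrays, was called in no comparison. Of 12 angiopoietins, other angiopoietin-like genes and TIE receptors on the array, 7 were above background on no array, ANGPT1 and ANGPT2 among them, and 3 were tested with 0 called in every comparison. ANGPTL4 was thus the angiopoietin-like gene with a signal well above background on all 16 arrays.

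VEGFA and ANGPTL4 are known targets of hypoxia-inducible factors, and the other genes of that pathway were read beside them. With HGF in 16HBE-ex14, 0 of the 9 tested hypoxia targets were called, with a median of 0.13. Among 9 oxygen-sensing genes 1 was called, EGLN3, a prolyl hydroxylase that marks hypoxia-inducible factors for degradation and is itself induced by them. EGLN3 was above background on all 4 16HBE-ex14 arrays and on no 16HBE-ex14+HGF array, which makes it at least 2.29-fold lower with HGF, where the background bounds the dim group (adjusted p = 0.00213). HIF1A was 0.44 higher with HGF (adjusted p = 0.0204), under the fold limit. Between the lines without HGF, HIF1A was 0.77 higher in 16HBE-ex14 (adjusted p = 6.45e-05) and EGLN3 was lower at -1.08 (adjusted p = 0.0029). Of the 9 hypoxia targets 3 were called lower and none higher, against 4.88% of all probes lower and 4.51% higher. They were NDRG1 at -1.52 (adjusted p = 0.000334), ADM, the vasodilator adrenomedullin, at -0.71 (adjusted p = 0.000437) and ANKRD37 at -0.61 (adjusted p = 0.0267), and the median of the list was -0.50. With array median scaling 1 of the 9 was called, NDRG1, since ADM was at -0.58 and ANKRD37 at -0.47, with E1A scaling or normexp 2, and with quantile normalization 4, all lower. ANKRD37 also lost its call without 16HBE-WT replicate 2 or 3 or 16HBE-ex14 replicate 4. Among the HGF-treated groups 3 of the 9 targets were called lower in 16HBE-ex14+HGF, against 5.52% of all probes. These targets were NDRG1 at -0.99 (adjusted p = 0.00591), ADM at -0.78 (adjusted p = 0.000172) and LDHA, a lactate dehydrogenase subunit, at -0.61 (adjusted p = 0.0113). LDHA lost its call with array median and E1A scaling and normexp, and without 16HBE-ex14+HGF replicate 1 or 2 or 16HBE-WT+HGF replicate 3 or 4. Among the same groups EGLN3 was at least 3.38-fold lower (adjusted p = 1.58e-05) and HIF1A 0.98 higher (adjusted p = 6.87e-06). No call of EGLN3 held with normexp, where it was at -0.22 with HGF in 16HBE-ex14. Its probe is dim, and the normexp offset shrinks differences of such probes. Of the 9 PPAR receptors and targets on the array 7 were tested, and 0 were called in each of the 5 comparisons.

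**Figure D5:**
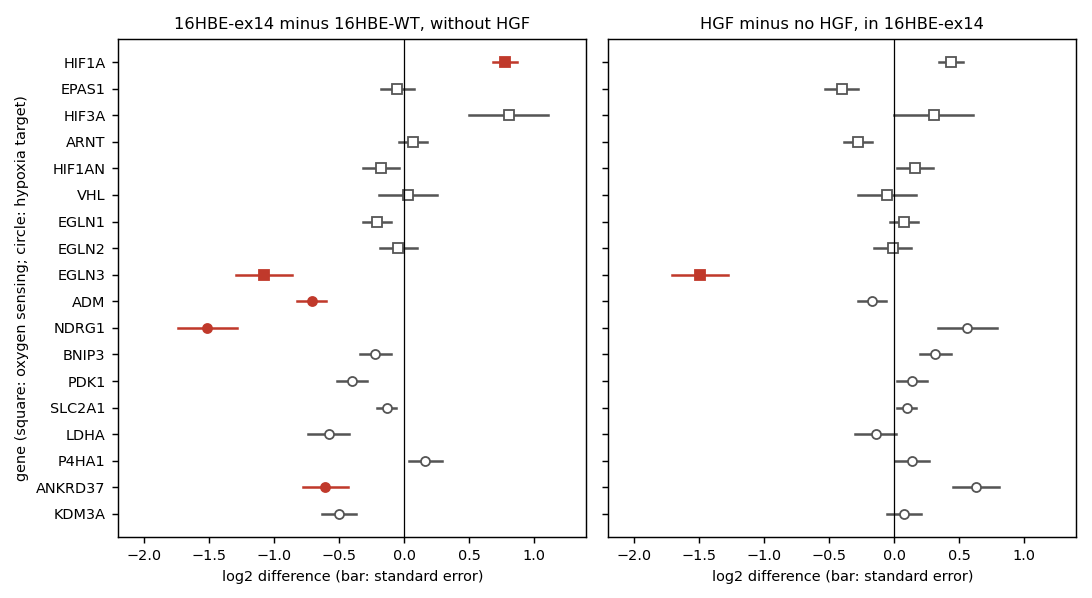
Log2 difference (horizontal axes, bars are standard errors) of 9 oxygen-sensing genes (squares) and 9 hypoxia targets (circles), for 16HBE-ex14 minus 16HBE-WT without HGF on the left and for HGF minus no HGF in 16HBE-ex14 on the right. Filled red symbols are called. HIF1A is right of 0 and NDRG1, ADM, ANKRD37 and EGLN3 left of 0 on the left, and on the right only EGLN3 is called, its fitted value resting on treated arrays that were not above background.

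Markers of the cell types that usually carry these receptors were checked. All 10 bronchial epithelial markers were above background on all 16 arrays, and their summed level ran from 10.86 to 11.16 over all arrays. KRT5, a basal keratin of that list, fell by 2.32 with HGF in 16HBE-ex14 (adjusted p = 0.000147) and was lower in 16HBE-ex14 than in 16HBE-WT without HGF at -2.57 (adjusted p = 6.29e-07). With HGF the difference between the lines was -4.26 (adjusted p = 3.26e-09). Of 10 endothelial markers 5 were above background on no array, PECAM1, TEK, TIE1, ERG and EMCN, and 4 (CDH5, VWF, ESAM and ROBO4) were on all 16, with 0 called in every comparison. The summed level ran from 1.23 to 1.38 on the 16HBE-WT arrays and from 1.03 to 1.51 on the treated ones, and from 0.87 to 1.26 and from 0.99 to 1.36 on the corresponding 16HBE-ex14 arrays. Among 6 fibroblast markers LUM was above background on all 4 16HBE-WT arrays and on no 16HBE-ex14 array, at least 3.06-fold lower in 16HBE-ex14 without HGF (adjusted p = 2.94e-06), while COL1A2, COL3A1 and DCN were above background on no array and COL1A1 and PDGFRB on all 16. The summed fibroblast level ran from -0.87 to 0.05 on the 16HBE-WT arrays and from -0.82 to -0.32 on the treated ones, and from -1.63 to -0.98 and from -1.32 to -1.24 on the corresponding 16HBE-ex14 arrays. All 3 leukocyte markers on the array were above background on all 16 arrays, with a summed level between -0.64 and 0.34, and CD3E was lower in 16HBE-ex14 than in 16HBE-WT without HGF at -0.98 (adjusted p = 0.0242), a call lost with normexp and without 16HBE-WT replicate 1 or 2 or 16HBE-ex14 replicate 2, 3 or 4. The part of these markers in the results was not tested.

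The RefSeq table of GRCh38.p14 held promoter sequences for 7 of the 9 genes, 8 in all, with 2 starts for PGF, and none for VEGFA and NRP1. The 250 bases before the start are shown for ANGPTL4 and PGF, since both rose with HGF in 16HBE-ex14. Capitals mark matches on either strand to ACGTG, the core of the hypoxia response element, to GGGCGG, the GC box bound by SP factors, or to TGANTCA, the AP-1 site, and the matches shown do not overlap. ANGPTL4 lies at chr19:8363905-8364154 on the plus strand and the upstream start of PGF at chr14:74955765-74956014 on the minus strand.
ANGPTL4 promoter: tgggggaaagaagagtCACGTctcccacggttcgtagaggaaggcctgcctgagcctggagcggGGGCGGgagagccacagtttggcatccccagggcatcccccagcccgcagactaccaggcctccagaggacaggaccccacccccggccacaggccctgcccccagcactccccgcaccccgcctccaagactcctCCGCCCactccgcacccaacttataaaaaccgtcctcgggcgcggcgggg
PGF promoter: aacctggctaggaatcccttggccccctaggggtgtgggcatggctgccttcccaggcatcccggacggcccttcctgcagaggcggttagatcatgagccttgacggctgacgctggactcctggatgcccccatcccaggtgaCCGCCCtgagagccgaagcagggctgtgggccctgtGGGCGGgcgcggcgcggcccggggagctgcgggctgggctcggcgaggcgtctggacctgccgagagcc
ACGTG was in 1 of the 8 member promoters, that of ANGPTL4, 234 bases before the start and read on the opposite strand, and in 18.5% of 35116 promoters of the same length. GGGCGG was in all 8 member promoters and in 42.6% of all. The 8 cover 7 genes, since the 2 PGF stretches overlap and share a match, 236 bases before 1 start and 69 before the other. The share of G and C in the 8 ran from 65.2% to 82.8%, and promoters of like content were not compared. TGANTCA was in 0 of the 8 and in 6.57% of all. A match describes these letters and not a bound site.

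The array patterns most like those of the 3 members with the widest range were listed by Pearson's r over the 16 arrays, as a description. These arrays share group means, so a high r reflects the groups as well as the single arrays. For ANGPTL4 they were LHX1 (0.985), the transcript ENST00000586949 (0.979) and COL13A1 (0.977). For NRP1 probe 1 they were FAM83A (0.955), PLCD4 (0.951) and the transcript THC2616237 (0.947), and for PGF they were EDEM3 (0.923), SH3TC2-DT (0.912) and TMEM158 (0.898).

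The scaling of the arrays shifts all probes together. With scaling to the array median, the median difference over all probes was -0.11 with HGF in 16HBE-ex14, against 0.05, and 0.12 between the lines without HGF, against -0.02. Of the calls with HGF in 16HBE-ex14, 52.2% were higher with the 75th percentile, 24.1% with the array median and 37.5% with the E1A spike-in probes, and of those between the lines without HGF 48%, 71.8% and 70.2%. ANGPTL4, PGF probe 1 and the NRP1 probes kept a higher level with HGF in 16HBE-ex14 under each scaling, while 3 of their 4 calls were lost with the array median.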

How the data were processed

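RNA of 16 cultures was hybridised to 1-colour Agilent human arrays, 4 per group. The authors deposited 1 scanner file per array, and per the file headers and the submitters' processing notes these were made with Agilent Feature Extraction 10.7.3.1, whose processed signal is a background-subtracted intensity. The study's methods place the 4 replicates in cultures a week apart, and nothing used here says which array is which week. From the 62976 spots, control spots and outlier flags were left out, spots of a probe were averaged, and log2 intensity was set relative to the 75th percentile of each array. Probes above background on at least 4 arrays were tested with limma 3.58.1 in R 4.3.3 (1 mean per group over all 16 arrays, eBayes, Benjamini-Hochberg), at the study's limits of a 1.5-fold change and an adjusted p of 0.05, and the script was tested on simulated data. Where a probe was not above background on any array of a group, the fold is a lower bound against the higher, on each array, of the lowest level above background and the probe's own level. A list's summed level is log2 of the sum of its members' linear signals. Alternatives were normexp background correction, other scalings, no filter, other priors, weights, blocks for slide and row, and leaving out each array in turn, and for the list genes these were chosen after the data were seen.

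The members and lists were chosen with earlier results of these data known. Every member is named with every probe, MET and HGF are given, a gene of another list is named where it was called, and likeness is given for the 3 members with the widest range of group means among those above background on all 16 arrays. Of several probes, the brightest by mean signal stands for its gene in the lists. Probe coordinates are those of hg19 in the files. Figures were drawn with matplotlib 3.10.9.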

Additional observations from a re-analysis of the deposited data

Results flagged for a closer look

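In 7 of 64 groups of 4 arrays the highest or lowest array stood apart from the other 3, with a gap, as a share of the group's range, past Dixon's 95% critical value. By chance about 1 in 20 independent groups would pass it. These groups are not independent, since they hold several probes of a gene on the same arrays, and some hold levels below background. The count therefore cannot be weighed against that rate. For NRP1 probe 1 in 16HBE-ex14 replicate 3 was at 0.46, against -0.18 for the nearest array. For NRP1 probe 3 replicate 3 was also highest in 16HBE-ex14 (-2.43 against -3.16) and in 16HBE-ex14+HGF (-1.39 against -2.04), and replicate 1 was lowest in 16HBE-WT (-4.86, not above background, against -3.71). For NRP2 probe 1 replicate 4 was lowest in 16HBE-WT (-3.92 against -3.47). For NRP2 probe 2, which no array showed above background, replicate 3 was highest in 16HBE-WT+HGF (-5.20 against -6.27). For KDR, also not above background, replicate 2 was highest in 16HBE-ex14 (-4.90 against -6.28).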

How the results depend on the processing

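Counts below are called member probes of 10 tested. With HGF in 16HBE-ex14 the count of 4 became 1 with array median scaling, 2 with E1A spike-in scaling, 2 without the filter on dim probes, 1 when only the arrays of the compared groups were fitted, and 0 on the arrays of slide 1 or of slide 2 alone, where each group had 2 arrays and 0 of all 34599 probes were called. It was 5 with slide as a block, with the trended and robust prior and with adjustment over the 5 comparisons. The added probe was NRP1 probe 3. Of all probes, 2.00% were called in the main fit, 2.11% with array median scaling and 1.77% with E1A scaling. Without the filter 0.957% were called, and 0.711% with the compared groups alone. Slide as a block called 2.38%, the trended prior 2.25% and adjustment over the 5 comparisons 2.47%. Between the untreated lines the count of 2 became 0 with normexp background correction, 1 without the filter, 1 among probes above background on all 16 arrays, 0 with only the compared groups, 1 with adjustment over the 5 comparisons together, and 0 on slide 1 or slide 2 alone. It was 3 with array median scaling, E1A scaling or no fold limit. Of all probes, 9.40% were called in the main fit, 4.3% with normexp and 5.29% without the filter. Among probes above background on all 16 arrays 10.4% were called. The compared groups alone called 8.41%, adjustment over the 5 comparisons 8.21%, slide 1 alone 4.12% and slide 2 alone 2.43%. Array median scaling called 10.6%, E1A scaling 10.4% and no fold limit 18.4%. Between the treated lines the count of 3 became 0 on slide 1 and 2 with normexp, and it was 4 with array median scaling, E1A scaling, slide or row as a block, the trended prior, array weights, the compared groups alone or no fold limit. Of all probes, 10.8% were called between the treated lines in the main fit, 4.83% on slide 1 and 5.24% with normexp. The settings with a count of 4 called from 10.3% with the compared groups alone to 20.6% with no fold limit. With HGF in 16HBE-WT the count of 0 became 1, NRP1 probe 2, with adjustment over the 5 comparisons (adjusted p = 0.0398). That adjustment called 85 of all 34599 probes in 16HBE-WT (0.246%), where the main fit called 0. Leaving out 1 array in turn gave 1 to 5 with HGF in 16HBE-ex14, with 1 when 16HBE-ex14+HGF replicate 3 or untreated 16HBE-ex14 replicate 2 was out, 2 when 16HBE-ex14+HGF replicate 4 or untreated 16HBE-ex14 replicate 1 or 4 was out, and 5 when 16HBE-WT replicate 1 or untreated 16HBE-ex14 replicate 3 was out. It gave 1 to 2 between the untreated lines, with 1 without any of the 12 arrays on which the call of NRP1 probe 3 rested, and 3 to 4 between the treated lines. No called member value turned its direction. ANGPTL4 with HGF in 16HBE-ex14 kept its call in every alternative except the single-slide fits, which called no probe at all, and its difference there was 1.68 and 1.87. Of 32 calls of list genes, put through the same alternatives after the data were seen, 27 were kept under all 3 other scalings and 27 in every fit without 1 array, and 2 turned their direction, both with normexp: SEMA3A at -0.099 between the untreated lines and PLXNA4 at -0.029 between the treated lines. Both probes are dim, and the normexp offset shrinks and shifts such differences, so these turns cannot decide a direction. PGF with HGF in 16HBE-ex14 had an adjusted p of 0.0589 with array median scaling, 0.0604 with E1A scaling, 0.0542 without the filter and 0.00421 with normexp. NRP1 probe 1 had 0.106 and probe 2 0.0505 with array median scaling. NRP1 probe 2 between the untreated lines differed by 0.44 with normexp, under the fold limit.

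Replicate numbers follow slide and row. Of 24 pairs of samples with the same number in different groups, 20 deviated together with a correlation over 0.1 (0.03 to 0.32 over all pairs). All were positive, but arrays of a row also share a slide, so row and slide cannot be told apart here. Of the 24 pairs, 10 correlated best with their own number. Nothing used here says that a number marks a culture. The main fit did not pair the samples, and the fit with the row as a block is given beside it. With the row as a replicate block the counts were 4 with HGF in 16HBE-ex14, 0 in 16HBE-WT, 2 and 4 between the lines without and with HGF, and 0 for the difference of responses. Signal over background limits FLT1, KDR, NRP2, PGF probe 2 and the 16HBE-WT groups of NRP1 probe 3, whose levels lie near or below the lowest measurable level.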
